A study of Mus musculus with 32 samples.

Results

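Cells leave quiescence through the first gap phase (G1) of the cell cycle, and 10 genes of the machinery that governs this step were followed here across all groups of a study of mouse regulatory T cells (Tregs): the D-type cyclins Ccnd2 and Ccnd3, the E-type cyclin Ccne1, the cyclin-dependent kinases Cdk4, Cdk6 and Cdk2, the CDK inhibitors Cdkn1b, Cdkn2c and Cdkn2d, and the pocket protein gene Rb1. They were found by exact gene symbol among the 54087 genes of each gene table; all 10 were present, had counts in every library and passed the filter on low counts. The 32 libraries are bulk RNA-seq of GFP+ Tregs purified from C57BL/6 mice aged 2.5 months that carry a Foxp3-IRES-GFP knock-in, an allele in which a fluorescent protein reports transcription of Foxp3, the master regulator of Tregs. All groups share this genotype and age. The resting group was not stimulated (3 libraries). All other groups were activated with plate-bound antibodies against CD3 and CD28, which stand in for antigen receptor and costimulatory signals, with mouse IL-2 (10 ng/ml) in the medium, and were harvested at 18 h or 36 h. The controls received nothing further (3 libraries at each time), and the other cultures received an agonist of 1 of 4 members of the tumour necrosis factor receptor superfamily. These were STAR2 (TNC-sc(mu)TNF80, 12 ng/ml) for TNFR2, the antibody 3H3 (10 µg/ml) for 4-1BB, TL1A (12 ng/ml) for DR3 and OX40L (100 ng/ml) for OX40, with 3 libraries per agonist and time except OX40 at 18 h, which has 2. The labels do not say from which organ the cells came, whether animals were pooled, or whether replicates are separate animals or cultures, so that p-values measure the spread between these libraries, which may be technical.

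In quiescent lymphocytes the kinases CDK4 and CDK6 have few cyclin partners and the retinoblastoma protein (the product of Rb1) holds E2F transcription factors in check. Receptor and cytokine signals raise D-type cyclins, which bind CDK4 and CDK6 and start the phosphorylation of the retinoblastoma protein. Cyclin E with CDK2 then completes it, and E2F factors switch on the genes of DNA replication. The p27 protein encoded by Cdkn1b restrains CDK2 complexes and is a hallmark of resting T cells, while the INK4 proteins p18 (Cdkn2c) and p19 (Cdkn2d) bind CDK4 and CDK6 directly.

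Promoter sequence from RefSeq (build GRCm38.p6) covering 250 bases before to 50 bases after a transcription start was at hand for 8 of the 10 genes, in 10 windows; Ccnd2 and Rb1 had none. Shown are the parts before the annotated exons of 4 genes whose transcripts followed different courses on activation: Cdk4, which rose and stayed high, Ccne1, which went on rising, Cdkn1b, which fell, and Ccnd3, which fell and then rose. They are written 5′ to 3′ on the strand of the gene, with 2 searched words in capitals, the CACGTG word read by MYC and MAX and the TGTTTAC word read by forkhead (FOXO) factors.
Cdk4 (plus strand, chr10:127063285-127063533): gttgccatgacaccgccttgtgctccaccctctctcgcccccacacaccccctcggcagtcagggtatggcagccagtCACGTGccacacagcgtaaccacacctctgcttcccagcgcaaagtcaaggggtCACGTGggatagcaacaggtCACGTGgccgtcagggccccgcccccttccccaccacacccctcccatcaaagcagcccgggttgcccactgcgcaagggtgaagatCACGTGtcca
Ccne1 (minus strand, chr7:38107535-38107740): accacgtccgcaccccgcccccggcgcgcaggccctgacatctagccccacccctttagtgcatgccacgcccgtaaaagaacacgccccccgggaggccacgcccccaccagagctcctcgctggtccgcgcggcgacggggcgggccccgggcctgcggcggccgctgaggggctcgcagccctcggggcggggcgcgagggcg
Cdkn1b (plus strand, chr6:134920151-134920400): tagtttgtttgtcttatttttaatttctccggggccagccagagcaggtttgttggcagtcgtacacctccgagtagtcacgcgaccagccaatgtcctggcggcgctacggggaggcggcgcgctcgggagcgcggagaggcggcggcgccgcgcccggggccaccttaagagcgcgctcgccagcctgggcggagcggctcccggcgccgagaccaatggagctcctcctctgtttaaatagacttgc
Ccnd3 (plus strand, chr17:47504801-47505050): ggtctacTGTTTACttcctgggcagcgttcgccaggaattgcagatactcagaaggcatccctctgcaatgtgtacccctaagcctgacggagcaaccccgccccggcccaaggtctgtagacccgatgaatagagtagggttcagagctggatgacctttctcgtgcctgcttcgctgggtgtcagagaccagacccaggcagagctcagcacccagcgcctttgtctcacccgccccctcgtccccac
The Cdk4 run holds CACGTG at 4 places, at positions -172, -118, -98 and -11 from the start. Only 8 of 32851 promoter windows of this length (0.024%) held 4 or more. Over both strands, on which CACGTG reads alike, 7.15% of all windows held CACGTG at least once, against 3 of the 10 windows of these genes (Cdk4, Cdk6 and Cdkn2c). TGTTTAC was in 3.65% of all windows and in 1 of the 10, at position -243 of the Ccnd3 window shown. Ccnd3 had another window, at chr17:47593217-47593516, without the word. Which start these cells used was not tested. The E2F words TTTGGCGC, TTTCCCGC, TTTCGCGC and TTTGCCGC were in 2.26% of all windows and, as TTTCCCGC read on the opposite strand at position -140, in the window of Cdk2 alone among the 10. A word is a description of the sequence, not a bound site.

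The libraries held 11880270 to 38083925 expected counts. Levels are given as CPM (counts scaled to a common library total, with TMM factors), and levels of different genes are compared only as TPM, which is per transcript length. Foxp3 and the other 6 Treg markers were detected in every group, with summed levels of 3567 to 3772 CPM in resting and 4928 to 6381 CPM in cultured libraries. The 7 did not move together. Against rest, 4 were called higher and 2 lower in 18 h controls, and 3 higher and 4 lower in 36 h controls. Between 18 h and 36 h controls 5 were lower and 0 higher. Markers of 4 other lineages moved between resting and control cells at 18 h: all 7 B cell markers and all 5 tested of 8 myeloid and dendritic markers were lower, of 5 tested of 7 CD8, NK and gamma-delta T cell markers 4 were lower and 1 higher, and both tested of 7 erythroid and platelet markers were lower. The B cell markers summed to 725 to 766.6 CPM in resting and 298.2 to 321.5 CPM in 18 h control libraries, nearly all of it Ighm (means of 721.4 and 302.0 CPM). The myeloid and dendritic markers went from 12.12 to 13.97 CPM at rest to 1.574 to 3.19 CPM in 18 h controls, the CD8, NK and gamma-delta T cell markers summed to 38.61 to 44.06 and 46.64 to 49.23 CPM, and the erythroid and platelet markers to 1.9 to 4.344 and 0.392 to 0.814 CPM. The NK cell receptor gene Ncr1 and the platelet gene Pf4 were at 0 counts in all groups, and the myeloid adaptor gene Tyrobp in both control groups. The transcript of a ribosomal RNA locus (Gm42418 with AY036118) varied most at 18 h: it took 10208.6, 26036.3 and 8114.2 CPM in the 3 controls and 1406.7 to 11861.8 CPM in the 11 agonist libraries, and reached 15006.1 CPM at 36 h. A total of 6 libraries had over 10000 CPM of it, among them 18 h controls 1 and 2, so that a fit without them leaves 1 control at 18 h, which is then assumed to vary like the other groups. The part of these other cell markers and of this transcript in the differences below was not tested beyond that fit and a fit with the transcript as a covariate. In bulk samples, fewer cells of a kind and less RNA per cell cannot be told apart.

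Activation moved nearly all of the 10 genes. Between resting and 18 h control cells 9 of 10 were called, 6 higher and 3 lower, where 80.9% of the 14313 genes tested were called, 40.9% higher and 40.1% lower (edgeR quasi-likelihood F test, Benjamini-Hochberg adjusted p below 0.05). Between resting and 36 h control cells all 10 were called, 7 higher and 3 lower, against 84.5% of all genes (42.4% and 42.1%), and between 18 h and 36 h all 10 again, 7 higher and 3 lower, against 52.2% (25.6% and 26.6%). Being called was common to most genes after activation. The median absolute log2 fold change over the 10 genes was 1.67 at 18 h and 1.28 at 36 h, beside 0.82 and 0.95 over all genes tested. The counts of calls fell to no fewer than 8 when any 1 library was left out.

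**Figure D1:**
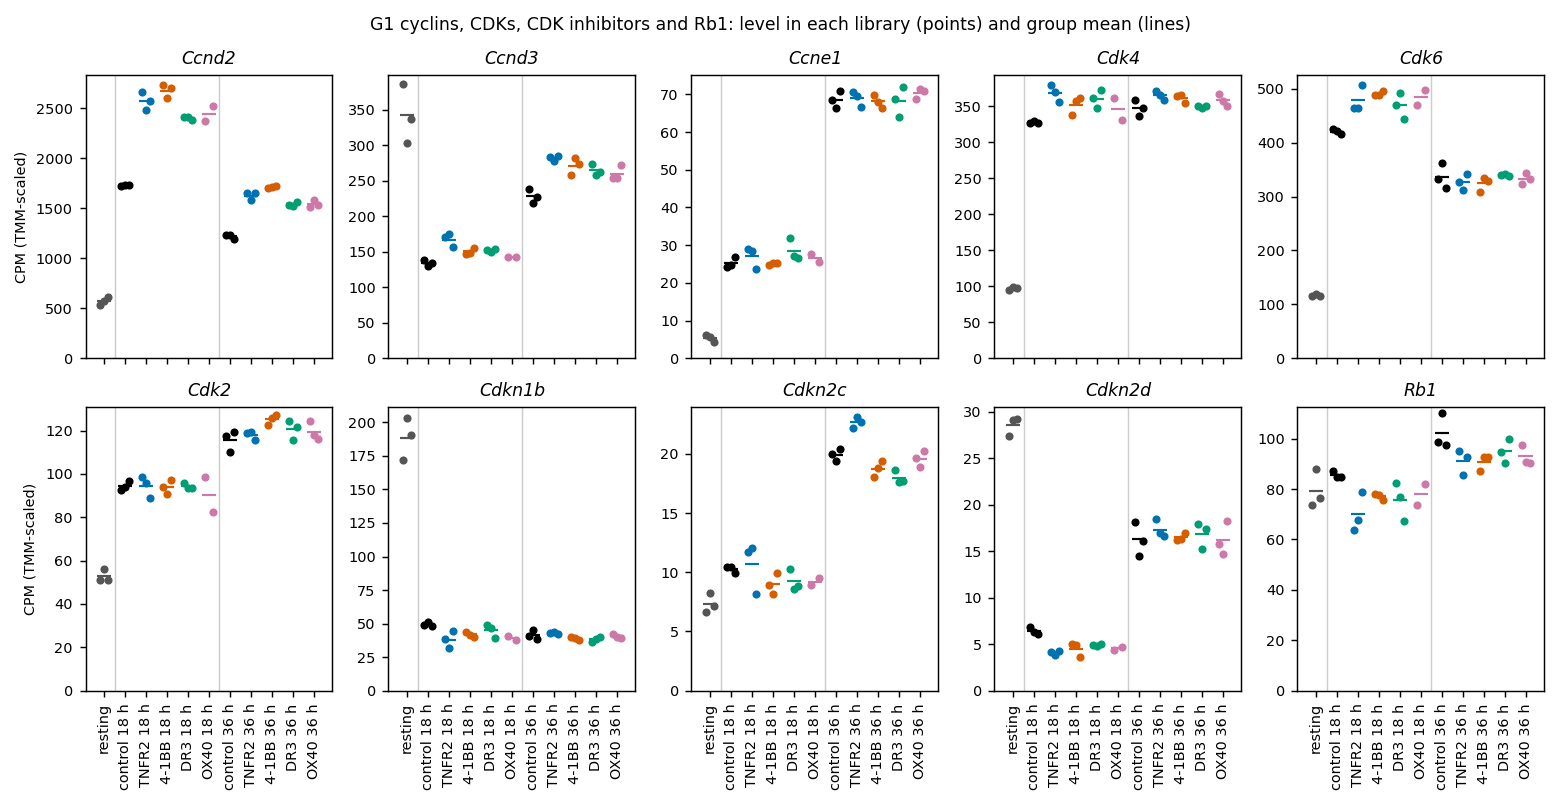
Level of each gene (y axis, CPM scaled by TMM factors, starting at 0) in each of the 32 libraries (points) with the group mean (lines) for the 11 groups on the x axis. Ccnd2 at 18 h lies between 2372 and 2725 CPM in the 11 agonist libraries and between 1717 and 1735 CPM in the controls, whereas Ccne1 climbs with time and overlaps between agonist and control libraries.

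Ccnd2, encoding cyclin D2 (ENSMUSG00000000184, mm10 chr6:127125162-127152193, minus strand), rose on activation. It stood at 535.3, 577.4 and 612.5 CPM in the resting libraries, at 1717, 1735 and 1728 CPM in the 18 h controls and at 1234, 1235 and 1196 CPM in the 36 h controls. No library of any of these groups overlapped another group, and the 18 h controls were the highest. Ccnd2 rose 3.00-fold by 18 h (log2 fold change 1.59 ± 0.037 SE, adjusted p = 2.22e-37 in edgeR) and then fell by 0.50 ± 0.036 on the log2 scale to 36 h (adjusted p = 1.61e-16).

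Ccnd3, encoding cyclin D3 (ENSMUSG00000034165, mm10 chr17:47505051-47599691, plus strand), ran the other way. Its levels were 387.0, 302.7 and 337.1 CPM at rest, 138.5, 129.8 and 134.9 CPM at 18 h and 239.1, 218.4 and 226.7 CPM at 36 h in the controls. The 3 groups did not overlap, with the resting libraries highest and the 18 h controls lowest. Ccnd3 fell by 1.35 ± 0.058 on the log2 scale by 18 h (2.55-fold lower, adjusted p = 3.01e-19 in edgeR) and rose by 0.76 ± 0.057 from 18 h to 36 h (adjusted p = 2.15e-12), which left it 1.5-fold below rest by read counts. Per transcript length it stood further below rest, at 459.0 TPM at rest, 135.5 TPM at 18 h and 221.8 TPM at 36 h. The estimated transcript length was 1547 ± 41.7, 1829 ± 29.3 and 1883 ± 26.0 bases in that order. Its exons share 361 bases (4.11% of their length) with Bysl on the opposite strand, and counts from a kit that does not mark strand cannot separate them. Bysl moved against Ccnd3 between rest and 18 h (log2 fold change 2.71).

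Per transcript length, the opposite courses of Ccnd2 and Ccnd3 left the sum of D-type cyclin transcripts nearly level while its makeup turned over. The sum of Ccnd1, Ccnd2 and Ccnd3 was 665.8 ± 49.2 TPM at rest (SD, n = 3), 679.7 ± 23.2 TPM in 18 h controls and 640.9 ± 14.5 TPM in 36 h controls, with ranges of 619.2 to 717.2, 654.3 to 699.9 and 624.2 to 650.1 TPM. The resting range took in both control groups, while all 36 h controls lay below all 18 h controls. The share of Ccnd2 in it was 31.18% ± 3.12 at rest, 80.06% ± 0.364 at 18 h and 65.33% ± 0.936 at 36 h, with no overlap between groups. Ccnd1, encoding cyclin D1, contributed almost nothing, with group means of 0.02 to 0.337 TPM over the 11 groups. TPM are relative to all transcripts of a library and say nothing of the amount per cell.

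**Figure D2:**
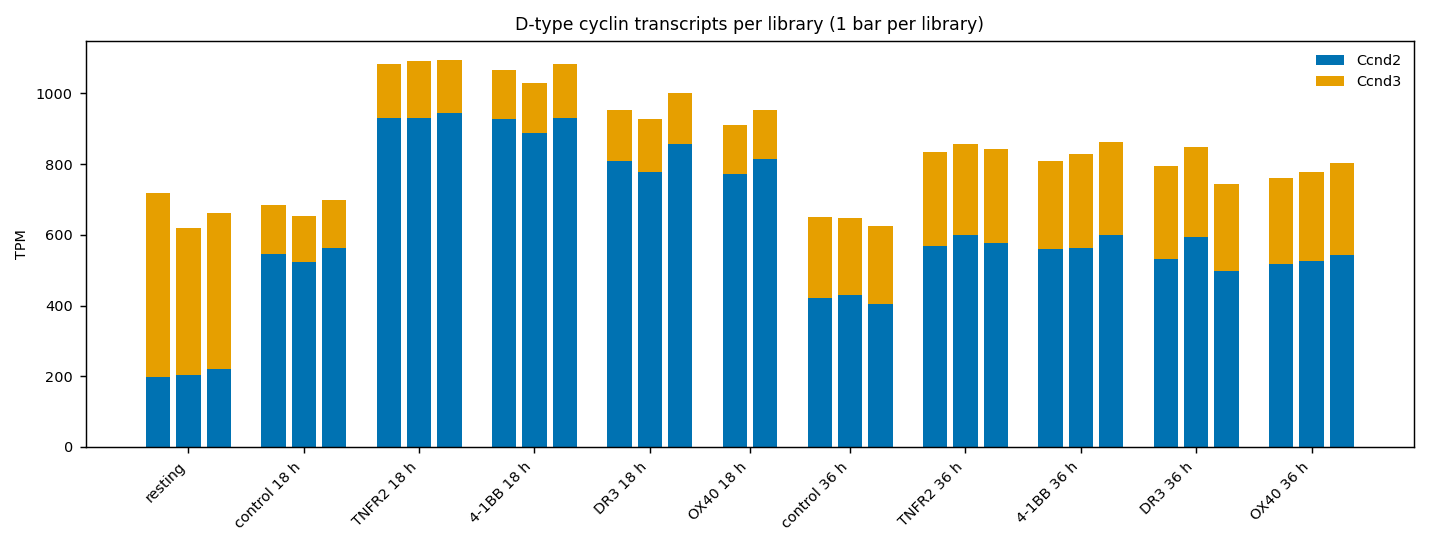
TPM of Ccnd2 (lower part of each bar) and Ccnd3 (upper part) in each of the 32 libraries, grouped on the x axis. Total height is alike in resting, 18 h control and 36 h control libraries (619.2 to 717.2, 654.3 to 699.9 and 624.2 to 650.1 TPM) while Ccnd2 goes from 31.18% to 80.06% and 65.33% of it on average, and all agonist groups stand higher than the control of their time.

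The partner kinases of the D-type cyclins rose early. Cdk4 (ENSMUSG00000006728, mm10 chr10:127063534-127067920, plus strand) was at 94.4, 98.55 and 97.83 CPM at rest and at 326.9, 329.5 and 326.5 CPM in 18 h controls, a 3.38-fold rise without overlap (log2 fold change 1.76 ± 0.038, adjusted p = 1.37e-38). It then stayed near that level, at 358.6, 336.3 and 347.1 CPM at 36 h: the further difference of 0.08 ± 0.035 passed the threshold (adjusted p = 0.0396) but not when any of 5 of the 6 control libraries was left out (all but 36 h control 2, adjusted p of 0.0705 to 0.2). Cdk4 shares 641 exon bases (19.7% of its own) with Tspan31 on the opposite strand, whose mean level was 37.11 CPM at rest and 51.8 CPM at 18 h, well below that of Cdk4.

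Cdk6 (ENSMUSG00000040274, mm10 chr5:3341485-3531008, plus strand), the other D-type cyclin kinase, was at 116.1, 118.8 and 114.8 CPM at rest, 424.4, 420.9 and 415.4 CPM at 18 h and 333.4, 361.7 and 316.2 CPM at 36 h in the controls. The 3 groups did not overlap and the 18 h group was highest, as for Ccnd2. The rise to 18 h was 3.60-fold (log2 fold change 1.85 ± 0.045, adjusted p = 7.74e-36) and the later fall was 0.32 ± 0.041 on the log2 scale (adjusted p = 7.24e-09). Per transcript length Cdk4 outnumbered Cdk6 throughout, with 87.85% ± 1.52 of their summed TPM at rest, 89.25% ± 0.157 at 18 h and 91.93% ± 0.346 at 36 h (SD, n = 3).

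Ccne1 and Cdk2, which encode the cyclin E1 and CDK2 of late G1, rose at both steps. Ccne1 (ENSMUSG00000002068, mm10 chr7:38097984-38107534, minus strand) was the scarcest of the 10 genes at rest by TPM. It went from 6.137, 5.577 and 4.458 CPM at rest to 24.29, 24.86 and 26.86 CPM at 18 h and 68.55, 66.32 and 70.86 CPM at 36 h. The groups lie far apart, and the rise over rest was 4.67-fold at 18 h and 12.6-fold at 36 h (log2 fold changes 2.22 ± 0.098 and 3.66 ± 0.084, adjusted p = 7.88e-26 and 7.45e-38), the largest change of any of the 10 genes in the control comparisons. From 18 h to 36 h alone it was 2.70-fold (adjusted p = 1.23e-25). Cdk2 (ENSMUSG00000025358, mm10 chr10:128697939-128705031, minus strand) was at 50.96, 56.08 and 51.07 CPM at rest, 92.34, 93.78 and 96.7 CPM at 18 h and 117.4, 110.1 and 119.5 CPM at 36 h. That is a 1.79-fold and a 2.19-fold rise over rest (adjusted p = 8.32e-20 and 1.51e-25), again without overlap between the groups.

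The inhibitor genes did not move as a group. Cdkn1b (ENSMUSG00000003031, mm10 chr6:134920401-134925513, plus strand) had the highest TPM of the 3 at rest and fell early. Its levels were 172.1, 203.0 and 190.7 CPM at rest, 48.63, 51.18 and 47.88 CPM at 18 h and 40.63, 45.44 and 38.49 CPM at 36 h. All cultured controls lay far below rest, 3.83-fold at 18 h and 4.55-fold at 36 h (log2 fold changes -1.94 ± 0.077 and -2.19 ± 0.077, adjusted p = 1.2e-18 and 6.06e-20). The further fall of 0.25 ± 0.084 from 18 h to 36 h (adjusted p = 0.0159) lost its call without 18 h control 2 or 36 h control 3 (adjusted p of 0.06 to 0.086).

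Cdkn2d (ENSMUSG00000096472, mm10 chr9:21288410-21291407, minus strand) fell and came back in part. It was at 27.44, 29.17 and 29.25 CPM at rest, 6.828, 6.296 and 6.084 CPM at 18 h and 18.18, 14.52 and 16.1 CPM at 36 h. The 18 h controls were the lowest of the 3 non-overlapping groups, 4.47-fold below rest (log2 fold change -2.16 ± 0.094, adjusted p = 3.3e-26), and Cdkn2d rose 2.54-fold from there to 36 h (adjusted p = 1.06e-16). Ccnd3 had the same order of groups.

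Cdkn2c (ENSMUSG00000028551, mm10 chr4:109660876-109667189, minus strand) rose instead, mostly after 18 h. Its levels were 6.62, 8.274 and 7.117 CPM at rest, 10.41, 10.47 and 9.942 CPM at 18 h and 19.99, 19.4 and 20.41 CPM at 36 h. The rise was 1.39-fold at 18 h (adjusted p = 1.29e-04) and 2.70-fold at 36 h (adjusted p = 1.53e-18). The early rise is seen in read counts only: per transcript length Cdkn2c was at 10.11 ± 0.783 TPM at rest and 9.927 ± 1.27 TPM at 18 h (limma on log2(TPM + 1), difference -0.028, adjusted p = 0.81), where the estimated transcript length was 1508 ± 49.9 and 1916 ± 182 bases. Summed over Cdkn1b, Cdkn2c and Cdkn2d, inhibitor transcripts were 189.0 ± 13.6 TPM at rest, 48.27 ± 2.34 TPM at 18 h and 66.21 ± 1.02 TPM at 36 h, and the share of Cdkn1b went from 70.73% ± 0.847 to 60.56% ± 2.23 and 38.34% ± 3.44.

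Rb1 (ENSMUSG00000022105, mm10 chr14:73183673-73325822, minus strand), the substrate of these kinases, changed least against rest. It was at 73.85, 88.07 and 76.33 CPM at rest, 87.19, 84.67 and 84.88 CPM at 18 h and 98.65, 110.3 and 97.35 CPM at 36 h. The resting and 18 h libraries overlapped (log2 fold change 0.10 ± 0.076, adjusted p = 0.212, and 0.20 with adjusted p = 0.0233 without resting library 2), and the 36 h libraries were above both (0.36 ± 0.074 over rest, adjusted p = 9.02e-05, and 0.25 ± 0.072 over 18 h, adjusted p = 0.00424). On log2(TPM + 1) the 36 h difference from rest was 0.14 with an adjusted p of 0.102 in limma. Rb1 shares 488 exon bases with Rcbtb2 and 408 with Lpar6 on the opposite strand (8.11% and 6.78% of its own); Lpar6 was at 45.01 CPM at rest and 6.047 CPM at 18 h, Rcbtb2 at 27.03 and 14.54 CPM.

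**Figure D3:**
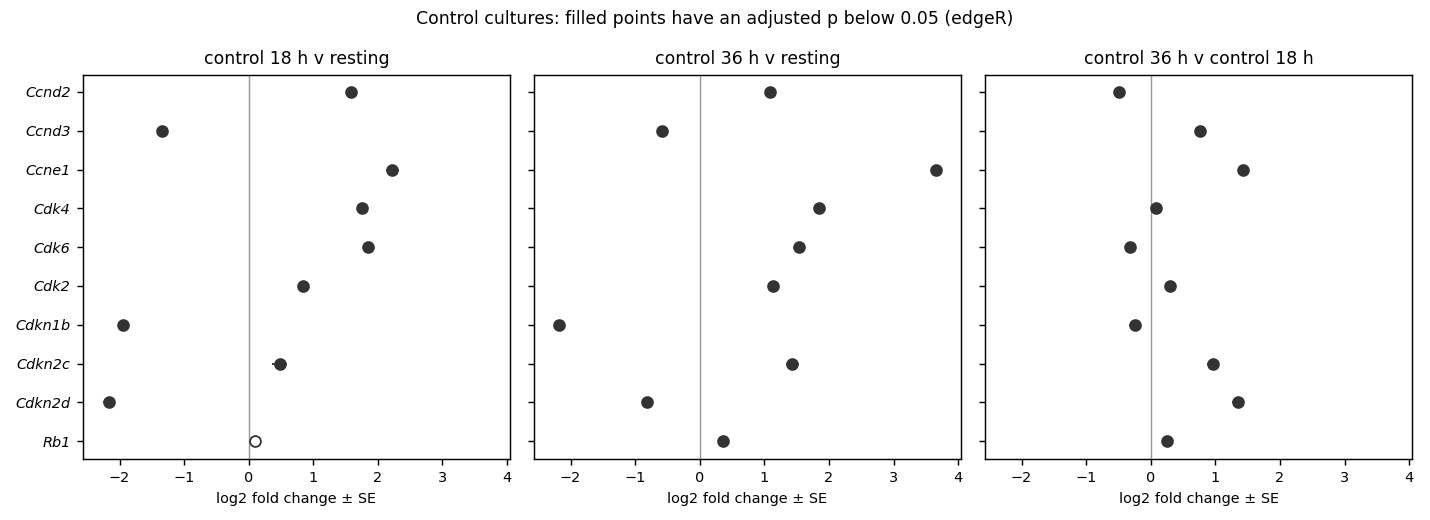
Log2 fold change with its standard error (x axis) of each gene (y axis) between control cultures and resting cells and between the control cultures of both times. Ccne1 reaches 3.66 at 36 h, Cdkn1b stays near -2 at both times, and Ccnd2 and Ccnd3 change sign between the first and the third panel.

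By TPM the order of the 10 genes changed with activation. At rest it ran Ccnd3 (459.0 ± 53.7 TPM), Cdk4 (216.2 ± 10.5), Ccnd2 (206.7 ± 11.4) and Cdkn1b (133.7 ± 11.2), and of these Cdk4 and Ccnd2 did not differ beyond their spread. Lower came Cdkn2d (45.12 ± 1.71), Cdk2 (39.81 ± 1.72), Rb1 (36.77 ± 2.85), Cdk6 (29.82 ± 2.89), Cdkn2c (10.11 ± 0.783) and Ccne1 (5.643 ± 0.973), where Cdk2 and Rb1 lay within their spread. In 18 h controls Cdk4 led (762.3 ± 1.14 TPM), before Ccnd2 (544.1 ± 19.0), Ccnd3 (135.5 ± 5.09), Cdk6 (91.82 ± 1.33) and Cdk2 (71.09 ± 2.35), and the last places went to Cdkn2c (9.927 ± 1.27) and Cdkn2d (9.143 ± 0.792), within their spread of each other. At 36 h the order was led by Cdk4 (820.1 ± 19.1), Ccnd2 (418.7 ± 12.8) and Ccnd3 (221.8 ± 6.27), and Ccne1 (66.81 ± 2.43) stood just below Cdk6 (71.97 ± 2.76).

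At 18 h the agonists raised Ccnd2 further, each without overlap with the controls. Against controls at 1717, 1735 and 1728 CPM, Ccnd2 was at 2659, 2484 and 2575 CPM with the TNFR2 agonist, 2725, 2596 and 2698 CPM with the 4-1BB agonist, 2415, 2412 and 2383 CPM with the DR3 agonist, and 2372 and 2516 CPM with the OX40 agonist. The lowest agonist library was thus well above the highest control. The rises were 1.49-fold, 1.55-fold, 1.39-fold and 1.42-fold in that order (log2 fold changes 0.58 ± 0.036, 0.63 ± 0.036, 0.48 ± 0.036 and 0.50 ± 0.040, edgeR adjusted p = 2.78e-18, 7.38e-20, 6.17e-15 and 3.36e-14). The 4 comparisons share their controls. Without the 6 libraries rich in ribosomal RNA the values were 0.55, 0.63, 0.48 and 0.50, and all were called. By TPM the rise with the TNFR2 agonist was larger (0.78 on log2(TPM + 1), limma), where the estimated length of Ccnd2 transcripts was 4640 ± 104 bases there and 5447 ± 131 bases in the controls.

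Ccnd2 was not alone at 18 h, but the other calls were smaller and less firm. With the TNFR2 agonist 7 of the 10 genes were called, 4 higher and 3 lower, where 31.1% of all genes were (15.8% higher, 15.3% lower). With the 4-1BB agonist 6 were called, 4 higher and 2 lower, against 25.8% (12.7% and 13.1%). With the DR3 agonist 5 were called, 4 higher and 1 lower, against 19.6% (9.66% and 9.94%), and with the OX40 agonist 4, 2 higher and 2 lower, against 19.0% (9.32% and 9.71%). Without the 6 libraries rich in ribosomal RNA, which leaves 1 control, fewer of the 10 genes were called with each agonist. Calls are harder to reach for any gene with 1 control, and whether the losses were particular to these genes was not tested. Other markers moved beside these genes: with each agonist 1 of 7 B cell markers and 1 of 5 tested CD8, NK and gamma-delta T cell markers was called higher at 18 h, with summed levels of 326.9 to 428.9 CPM (controls 298.2 to 321.5) and 55.1 to 72.86 CPM (controls 46.64 to 49.23). With each agonist 1 of 2 tested erythroid and platelet markers was called lower, with summed levels of 0 to 0.172 CPM (controls 0.392 to 0.814). Of the 7 Treg markers 2 (TNFR2), 3 (4-1BB), 2 (DR3) and 2 (OX40) were lower and 1, 1, 0 and 1 higher, with sums of 5758 to 6381 CPM (controls 6199 to 6234).

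The TNFR2 agonist gave the most calls at 18 h that stood under all alternatives. Ccnd3 was at 170.8, 174.8 and 156.3 CPM, above the controls at 138.5, 129.8 and 134.9 CPM (log2 fold change 0.32 ± 0.058, adjusted p = 8.96e-05 in edgeR). Cdk6 was at 464.5, 463.9 and 506.7 CPM against 424.4, 420.9 and 415.4 CPM (0.19 ± 0.041, adjusted p = 3.17e-04). Cdkn2d was at 4.195, 3.854 and 4.289 CPM against 6.828, 6.296 and 6.084 CPM (-0.63 ± 0.127, adjusted p = 9.73e-05). None of these overlapped, and with Ccnd2 they make the 4 calls that remained under every alternative. They are calls against controls: in the joint test among the 4 agonists at 18 h, Ccnd3, Cdk6 and Cdkn2d were not called (edgeR adjusted p = 0.0628, 0.645 and 0.574). Cdk4 (0.17 ± 0.035, adjusted p = 1.47e-04), Cdkn1b (-0.36 ± 0.087, adjusted p = 0.00199) and Rb1 (-0.29 ± 0.076, adjusted p = 0.00397) were called too, and their adjusted p was 0.0852, 0.176 and 0.24 without the 6 libraries rich in ribosomal RNA. Cdkn1b was at 38.36, 31.53 and 44.38 CPM with the agonist and at 48.63, 51.18 and 47.88 CPM in controls, so that all 3 agonist libraries were below all controls. Rb1 was below all controls (84.67 to 87.19 CPM) in all 11 agonist libraries of 18 h (63.81 to 82.27 CPM), and its difference with 4-1BB, DR3 and OX40 was -0.15, -0.18 and -0.14 (adjusted p = 0.152, 0.111 and 0.281). When only the groups compared were fitted, Rb1 was called with 4-1BB and DR3 too (0.000546 and 0.0348), and with DR3 also with no filter on low counts (0.0446), in limma on log2(TPM + 1) (0.0156) and without DR3 library 1 (0.0433).

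With the 4-1BB agonist, Cdk6 was the only call beside Ccnd2 that remained under every alternative. It was at 488.3, 488.1 and 496.2 CPM, above all controls (0.22 ± 0.041, adjusted p = 2.17e-05 in edgeR). Cdkn2d was at 5.012, 4.885 and 3.645 CPM, below all controls (-0.50 ± 0.123, adjusted p = 0.00149), and its adjusted p was 0.108 without the libraries rich in ribosomal RNA. Ccnd3 (0.16 ± 0.058, adjusted p = 0.0367) lost its call without 18 h control 2 or 3 or 4-1BB library 2 or 3 (adjusted p of 0.0643 to 0.144). It also lost it on log2(TPM + 1) (limma, 0.239). Cdk4 (0.10 ± 0.035, adjusted p = 0.0216) lost it without any of the 6 libraries but 4-1BB library 1 (0.057 to 0.146). Cdkn1b (-0.23 ± 0.085, adjusted p = 0.0465) lost it without any 1 of the 6 (0.0543 to 0.135).

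For the DR3 and OX40 agonists at 18 h, Ccnd2 was the only call of the 10 genes that remained under every alternative. With the DR3 agonist Cdk4 was at 361.9, 347.1 and 372.5 CPM and Cdk6 at 469.8, 492.6 and 444.4 CPM, both above all controls (0.14 ± 0.035 and 0.16 ± 0.041, adjusted p = 0.0033 and 0.0036). These calls were kept with any library left out. They were lost without the libraries rich in ribosomal RNA (0.14 and 0.18, adjusted p = 0.116 and 0.0844) and on log2(TPM + 1) (0.09 and 0.24, limma adjusted p = 0.144 and 0.0636). Ccnd3 (0.18 ± 0.059, adjusted p = 0.0271) lost its call without 18 h control 2 or 3 or DR3 library 1 or 3 (0.0594 to 0.1), and Cdkn2d (-0.38 ± 0.127, adjusted p = 0.0262) without 18 h control 1 or DR3 library 1 or 2 (0.0611 to 0.106). Ccnd3 was also lost on log2(TPM + 1) (limma, 0.218), and Cdkn2d with the ribosomal transcript as a covariate (edgeR, 0.0702). With the OX40 agonist Cdk6 was at 470.2 and 497.7 CPM (0.20 ± 0.045, adjusted p = 7.29e-04), Cdkn1b at 40.85 and 37.76 CPM (-0.32 ± 0.096, adjusted p = 0.018) and Cdkn2d at 4.422 and 4.674 CPM (-0.49 ± 0.136, adjusted p = 0.00686), all outside the control range. Cdk6 lost its call without OX40 library 2 (adjusted p = 0.0564), Cdkn1b without OX40 library 2 or 18 h control 2 (0.0591 to 0.186) and Cdkn2d without OX40 library 1 (0.0708). Cdkn1b and Cdkn2d also lost theirs with the ribosomal transcript as a covariate (edgeR, 0.0645 and 0.0768). Cdk6 and Cdkn1b lost theirs on log2(TPM + 1) (limma, 0.0656 and 0.123). Without the libraries rich in ribosomal RNA, which leaves 1 control, Cdkn1b and Cdkn2d differed by -0.28 and -0.42.

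Ccne1, Cdk2 and Cdkn2c were not called with any agonist at 18 h. Ccne1 was at 23.79 to 31.78 CPM in the 11 agonist libraries, across the control values of 24.29 to 26.86 CPM, and Cdk2 at 82.3 to 98.62 CPM across 92.34 to 96.7 CPM. Cdkn2c was at 8.958, 8.172 and 9.917 CPM with the 4-1BB and 8.891 and 9.506 CPM with the OX40 agonist, all below the controls at 9.942 to 10.47 CPM, and overlapped them with the TNFR2 and DR3 agonists. Its log2 differences were 0.06, -0.19, -0.15 and -0.16 with TNFR2, 4-1BB, DR3 and OX40 (adjusted p = 0.711, 0.164, 0.334 and 0.349). The log2 differences were -0.02 to 0.17 for Ccne1 and -0.06 to 0.00 for Cdk2, with standard errors up to 0.075. With the DR3 agonist the difference of 0.17 in Ccne1 had an adjusted p of 0.0828, and of 0.0382 with the ribosomal transcript as a covariate. Leaving out 1 library made 2 of these differences pass: Ccne1 with TNFR2 went from 0.10 to 0.18 without TNFR2 library 3 (adjusted p = 0.0407), and Cdk2 with OX40 from -0.06 to -0.20 without OX40 library 1 (adjusted p = 0.0178).

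**Figure D4:**
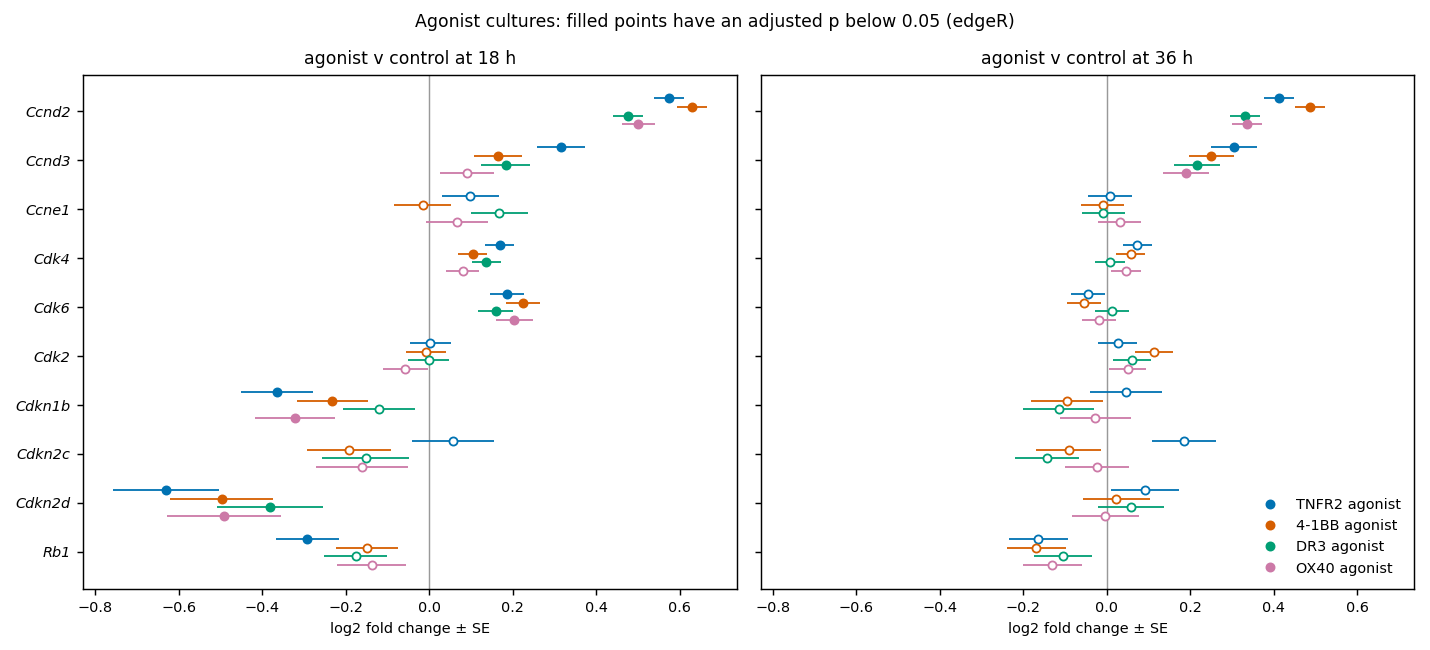
Log2 fold change with its standard error (x axis) of each gene (y axis) between each agonist and the control of its time, at 18 h and 36 h; filled points were called. Ccnd2 lies between 0.48 and 0.63 at 18 h and between 0.33 and 0.49 at 36 h, Cdkn2d lies between -0.63 and -0.38 at 18 h and between -0.003 and 0.09 at 36 h, and Ccne1 and Cdk2 stay uncalled in both panels.

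At 36 h only the D-type cyclins were called, Ccnd2 and Ccnd3, with every agonist and in the direction of higher levels. That is 2 of 10 genes in each comparison, where 24.8% of all genes were called with the TNFR2, 22.5% with the 4-1BB, 13.4% with the DR3 and 13.3% with the OX40 agonist (13.0%, 10.9%, 6.97% and 7.12% higher). Ccnd2 was at 1648, 1578 and 1651 CPM with the TNFR2, 1699, 1711 and 1722 CPM with the 4-1BB, 1531, 1519 and 1561 CPM with the DR3 and 1511, 1583 and 1529 CPM with the OX40 agonist, all above the controls at 1234, 1235 and 1196 CPM. The log2 fold changes were 0.41, 0.49, 0.33 and 0.33 with a standard error of 0.036 (edgeR adjusted p = 4.68e-13, 1.53e-15, 7.47e-10 and 4.07e-10), and they were called under all alternatives.

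Ccnd3 was at 254.1 to 284.6 CPM in the 12 agonist libraries at 36 h and at 218.4 to 239.1 CPM in the controls, again without overlap. The log2 fold changes were 0.31 with the TNFR2, 0.25 with the 4-1BB, 0.22 with the DR3 and 0.19 with the OX40 agonist, with a standard error of 0.055 (edgeR adjusted p = 9.42e-05, 9.39e-04, 0.00715 and 0.0178). The first pair of calls stood under all alternatives. The DR3 call was lost without 36 h control 2 (adjusted p = 0.0591), and the OX40 call without 36 h control 2 or 3 or OX40 library 3 (0.0547 to 0.112), without the libraries rich in ribosomal RNA (0.0588) and with that transcript as a covariate (0.0703). The summed D-type cyclin TPM was higher in agonist than in control cultures at both times, with group means of 932.5 to 1089 TPM against 679.7 TPM at 18 h and 781.4 to 845.3 TPM against 640.9 TPM at 36 h.

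The other 8 genes were not called at 36 h. The nearest were Cdk2 with the 4-1BB agonist, at 122.5, 125.7 and 127.1 CPM against 117.4, 110.1 and 119.5 CPM (0.11 ± 0.045, adjusted p = 0.0671), and Cdkn2c with the TNFR2 agonist, at 22.21, 23.15 and 22.69 CPM against 19.99, 19.4 and 20.41 CPM (0.19 ± 0.077, adjusted p = 0.0702). Neither overlapped its controls, and both were called when only the groups compared were fitted (0.0363 and 0.0356). The difference in Rb1 was -0.16 with the TNFR2 and -0.17 with the 4-1BB agonist (adjusted p = 0.1 and 0.093), again without overlap with the controls. Both were called in the same smaller fit (0.0209 and 0.00611) and with no filter on low counts (edgeR, 0.0258 and 0.0253). With TNFR2, Rb1 was also called on log2(TPM + 1) (limma, 0.0403). Ccne1 at 64.1 to 71.88 CPM in agonist libraries covered the control range of 66.32 to 70.86 CPM. Other markers moved at 36 h as well: 1 of 7 B cell markers was higher with TNFR2 (sums of 281.6 to 302.6 CPM, controls 269.9 to 284.4). Of the 5 tested CD8, NK and gamma-delta T cell markers 1 was higher with DR3 and OX40 (60.6 to 68.05 CPM, controls 52.34 to 56.53) and 1 lower with 4-1BB (46.83 to 51.03 CPM). With 4-1BB 1 of 5 tested myeloid and dendritic markers was lower (1.847 to 2.893 CPM, controls 3.2 to 3.451), and of the 7 Treg markers 1 was higher with each agonist and 3, 2, 1 and 2 lower with TNFR2, 4-1BB, DR3 and OX40. Their part in the D-type cyclin calls was not tested.

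The effect of an agonist at 36 h was then set against its effect at 18 h in the same model. With the TNFR2 agonist 4 of the 10 genes differed, where 6.69% of all genes did. Cdkn2d was lowered at 18 h and not called at 36 h (difference of effects 0.72 ± 0.151, adjusted p = 9.91e-04 in edgeR), and Cdk6 was raised at 18 h and not called at 36 h (-0.23 ± 0.058, adjusted p = 0.00778, and 0.0538 without 36 h control 2). Cdkn1b (0.41 ± 0.122, adjusted p = 0.0408) and Ccnd2 (-0.16 ± 0.051, adjusted p = 0.0408) also differed. Cdkn1b lost its call without any of 10 of the 12 libraries (all but TNFR2 18 h library 3 and 36 h control 2, adjusted p up to 0.103), and Ccnd2 without any of 9 (all but TNFR2 18 h library 2, TNFR2 36 h library 3 and 36 h control 3, adjusted p up to 0.142). None of the 4 was called without the libraries rich in ribosomal RNA.

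With the 4-1BB agonist 2 of 10 differed, against 4.37% of all genes: Cdk6 (-0.28 ± 0.058, adjusted p = 0.00112) and Cdkn2d (0.52 ± 0.147, adjusted p = 0.0276). Cdkn2d lost its call without 18 h control 1, 36 h control 2 or the 4-1BB library 3 of either time (0.0628 to 0.166). It also lost it with the ribosomal transcript as a covariate (edgeR, 0.206) and on log2(TPM + 1) (limma, 0.0771). Without the libraries rich in ribosomal RNA, which leaves 1 control at 18 h, its difference was 0.45. On log2(TPM + 1) the Cdk6 difference was not called with TNFR2, 4-1BB or OX40 (limma adjusted p = 0.0708, 0.222 and 0.485). With the OX40 agonist 1 of 10 differed, against 3.48%, and it was Cdk6 (-0.22 ± 0.061, adjusted p = 0.0312), a call lost without any of 7 of the 11 libraries (all 3 controls at 18 h, 36 h control 2, OX40 18 h library 2 and OX40 36 h libraries 1 and 3, adjusted p of 0.0502 to 0.281). With the DR3 agonist none of the 10 was called, against 2.31% of all genes, although 5 had an unadjusted p under 0.05; edgeR and DESeq2 both gave 0, and with the ribosomal transcript as a covariate 1 was called. The drop in the effect on Ccnd2 was of like size with each agonist, at -0.16, -0.15, -0.15 and -0.17 for TNFR2, 4-1BB, DR3 and OX40, and only the first passed the threshold in the main fit. With the ribosomal transcript as a covariate it was also called with 4-1BB, DR3 and OX40 (edgeR adjusted p = 0.00731, 0.0141 and 0.00761). With 4-1BB it was called too with only the groups compared (edgeR, 0.0132) and on log2(TPM + 1) (limma, 0.0168). With OX40 it was called with DESeq2 (0.0156) and without OX40 18 h library 1 (edgeR, 0.0251).

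The agonists were also set against each other, with doses that were not matched and 2 or 3 libraries per group. A gene not called here is not shown to be alike with all agonists. In the joint test of differences among the 4 at 18 h, 1 of 10 genes was called against 14.3% of all genes, and at 36 h 2 of 10 against 9.06%. Ccnd2 was called at both times (adjusted p = 0.00633 and 0.00355 in edgeR), and 1 of its 6 pairs of agonists was called at 18 h. Its joint call was lost at 18 h when only the groups compared were fitted (adjusted p = 0.0807) and at 36 h on log2(TPM + 1) (limma adjusted p = 0.231). Ccnd3 was not called jointly at 18 h (adjusted p = 0.0628) but was with DESeq2 (0.0229), with only the groups compared (0.0193), with the stricter filter on low counts (0.0366) and with none (0.000261). Pairs were to be read only for genes called jointly, which Ccnd3 was not at 18 h in the main fit. Of its 6 pairs at 18 h, 1 passed the threshold, TNFR2 with OX40 (3 and 2 libraries). Ccnd3 was 0.22 ± 0.065 higher there with the TNFR2 agonist (adjusted p = 0.0293, edgeR). Values of this pair under the alternatives are not given here. Without TNFR2 library 3, Ccnd3, Cdkn1b and Cdkn2c were called in the joint test at 18 h (adjusted p = 0.0231, 0.015 and 0.00536). For the pairs TNFR2 with 4-1BB, TNFR2 with DR3, TNFR2 with OX40, 4-1BB with DR3, 4-1BB with OX40 and DR3 with OX40, the share of all genes called was 5.56%, 3.74%, 8.19%, 8.54%, 4.26% and 4.12% at 18 h and 3.7%, 3.56%, 4.02%, 5.43%, 3.63% and 1.7% at 36 h. Ccnd2 was higher with the 4-1BB than with the DR3 agonist, by 0.15 ± 0.036 at 18 h (adjusted p = 0.00264) and by 0.15 ± 0.036 at 36 h (adjusted p = 0.00343). At 36 h it was also higher with the 4-1BB than with the OX40 agonist (0.15 ± 0.036, adjusted p = 0.00655, and 0.065 without OX40 library 1), and on log2(TPM + 1) neither difference at 36 h was called (limma adjusted p = 0.51 and 0.382).

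Cdkn2c was the other gene called among agonists at 36 h (adjusted p = 0.0111 in the joint test, and 0.0822 without TNFR2 library 2). It was highest with the TNFR2 agonist, at 22.21, 23.15 and 22.69 CPM, above the 17.65 to 20.24 CPM of the other 9 agonist libraries. The difference was 0.33 ± 0.078 from DR3 (adjusted p = 0.00657), 0.28 ± 0.078 from 4-1BB (adjusted p = 0.0322, lost without any 1 of the 6 libraries with 0.0634 to 0.14) and 0.21 ± 0.078 from OX40 (adjusted p = 0.127). By TPM the joint test gave an adjusted p of 0.351 in limma. The 2 genes had 12 pairs of agonists at 36 h, of which 4 were called.

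The nearest relatives of these genes were measured in the same fit. Cdkn1a, which encodes the inhibitor p21, had mean levels of 1.236 CPM in resting, 40.89 CPM in 18 h control and 142.7 CPM in 36 h control cells (log2 fold changes 5.01 and 6.82, adjusted p = 2.82e-19 and 1.67e-24), opposite to Cdkn1b. The agonists took Cdkn1a further at 36 h, to 211.7 CPM with TNFR2, 176.8 with 4-1BB, 184.0 with DR3 and 168.6 with OX40 (log2 fold changes 0.57, 0.31, 0.37 and 0.24, adjusted p = 2.15e-07, 8.94e-04, 2.63e-04 and 0.0137). At 18 h it was called with the TNFR2 and 4-1BB agonists only (0.32 and 0.43, adjusted p = 0.00468 and 2.34e-04), beside 0.14 and 0.22 with DR3 and OX40. Ccne2, the second E-type cyclin, went from 1.458 CPM to 22.87 and 76.93 CPM in controls, and like Ccne1 it was not called with any agonist.

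The pocket protein genes split on activation. Rbl2, encoding the p130 protein of quiescent cells, fell between resting (239.7 CPM) and 18 h control cells (73.17 CPM; log2 fold change -1.71, adjusted p = 1.4e-37) and was at 89.97 CPM in 36 h controls. Rbl1, encoding p107, rose from 67.21 to 96.51 and 131.0 CPM (0.52 and 0.96, adjusted p = 1.13e-14 and 2.44e-25), while Rb1 moved little between rest and 18 h. At 36 h Rbl1 was lower with each agonist (log2 fold changes of -0.18, -0.17, -0.13 and -0.13 for TNFR2, 4-1BB, DR3 and OX40, adjusted p = 8.54e-04, 0.00107, 0.0198 and 0.0256).

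Downstream of the pocket proteins, the transcription factor gene E2f1 had mean levels of 4.535 CPM in resting, 41.88 CPM in 18 h control and 40.62 CPM in 36 h control cells. E2f2 fell from 50.67 to 30.46 CPM and then rose to 73.85 CPM. E2f1 was higher with each agonist at 36 h (0.23, 0.27, 0.18 and 0.24 for TNFR2, 4-1BB, DR3 and OX40, adjusted p = 4.88e-04, 4.08e-05, 0.0118 and 3.37e-04). All 19 listed E2F target genes of S phase entry were higher than at rest in 18 h and in 36 h controls, led by Cdc6 at 18 h (3.99) and Ccna2 at 36 h (6.07), with Cdt1 the least raised (1.36 and 1.71), where 40.9% and 42.4% of all genes were called higher. Ccna2 and E2f1 are on this list and on another. From 18 h to 36 h 15 rose and 1, Mcm2, fell (-0.10, adjusted p = 0.00994). With the agonists at 18 h, 16 of the 19 were higher with TNFR2, 10 with 4-1BB, 10 with DR3 and 12 with OX40, against the background shares above. Those counts were lower without the libraries rich in ribosomal RNA, where 1 control is left and calls are harder to reach for any gene. At 36 h they were 7, 7, 1 and 5, and 4, 7, 1 and 4 without those libraries, with 1 of the 19 lower with TNFR2.

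Upstream, Myc, which drives growth and cell cycle entry, rose between resting (142.5 CPM) and 18 h control cells (742.3 CPM; log2 fold change 2.38, adjusted p = 7.63e-45) and then fell to 487.6 CPM, the order of groups seen for Ccnd2 and Cdk6. At 18 h it was higher with every agonist (0.18, 0.09, 0.15 and 0.10 for TNFR2, 4-1BB, DR3 and OX40, adjusted p = 2.43e-05, 0.031, 7.01e-04 and 0.0427), and at 36 h it was lower with 4-1BB (-0.14, adjusted p = 0.0016). Of the 11 listed factors of quiescence and cell cycle entry, 8 fell and 2 rose by 18 h, and 8 fell and 3 rose by 36 h, beside the shares of all genes called lower given above. Tsc22d3, encoding the glucocorticoid-induced leucine zipper GILZ, fell most (-4.51 and -5.44). From 18 h to 36 h Klf2, which maintains T cell quiescence, fell most (-1.85) and Tob1 rose most (0.40). With agonists 5 to 7 of the 11 were lower at 18 h and 5 to 9 at 36 h. Both ranges were lower without the libraries rich in ribosomal RNA, a fit that leaves 1 control at 18 h. At 36 h 11.9%, 11.5%, 6.39% and 6.21% of all genes were called lower with TNFR2, 4-1BB, DR3 and OX40.

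Of the remaining lists, the 7 tested genes among 9 other G1/S cyclins and kinases all rose by 18 h (Cdk1 4.17 at the top, Mnat1 0.69 at the bottom) and by 36 h. Of 13 phosphatases, CDK-inhibiting kinases and turnover factors 11 rose and 2 fell by 18 h, between Cks1b (3.26) and Cdc25b (-0.95). Of 8 other pocket proteins and DREAM complex genes 6 rose and 2 fell, with Mybl2 (3.17) and Rbl2 at the ends, and of 10 E2F and DP factor genes 8 rose and 2 fell, with E2f8 (3.71) and E2f2 (-0.73) at the ends. Of the 5 other CDK inhibitors 3 rose and Cdkn1c fell (-0.86, adjusted p = 0.00836). Of all 73 listed pathway genes 71 were tested, and 54 rose and 15 fell by 18 h, beside 80.9% of all genes called, 40.9% higher and 40.1% lower.

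The closest companions of each of the 10 genes were sought as the 2 named genes with the highest Pearson correlation of group mean log2 CPM over the 11 groups, among 9191 genes with a mean of at least 5 CPM over the groups. These values describe 11 points that mostly differ by activation and time, and so carry no p. Ccnd2 was closest to Nfe2l1 and Cd200 (r = 0.997 and 0.995), Cdk6 to Mtrr and Snd1 (0.998 and 0.998), and Cdk4 to Prmt1 and Rfc3 (1.000 and 0.999). Ccne1 was closest to Mad2l1 and Nek2 (1.000 and 0.999), which act in mitosis, and Cdk2 to Ska1 and Sapcd2 (0.997 and 0.996). Cdkn1b was closest to Zkscan14 and Arhgap4 (0.998 and 0.996), Ccnd3 to Kdelr1 and Hnrnph3 (0.981 and 0.981), Cdkn2d to Dubr and Ddit4 (0.986 and 0.985) and Cdkn2c to Aldh2 and Bnip3 (0.989 and 0.988). Rb1 had the least close companions, Dpy19l4 and Soat1 (0.977 and 0.977).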

How the data were processed

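Each library came as a gene table that the authors made with RSEM and deposited. Per the submitters' processing notes, FastQC, Trimmomatic, STAR 2.5.3a, RSEM 1.2.28 and build mm10 were used; which annotation and strand setting RSEM had is not given in the sources used here. Deposited expected counts are estimated reads per gene, not normalized, and deposited TPM are the authors' values per transcript length. Of 54087 genes, 53973 matched GENCODE M21, the source of identifiers and positions. RNA was isolated with NucleoSpin RNA XS and amplified with SMART-Seq v4, which does not mark strand, per the labels' protocols.

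Expected counts were rounded and fitted with edgeR 4.0.16 (R 4.3.3): filterByExpr over 11 groups left 14313 genes, TMM scaling (factors 0.973 to 1.079), 1 mean per group over 32 libraries (biological coefficient of variation 4.02%), robust quasi-likelihood F tests, Benjamini-Hochberg over all genes, called below 0.05. Adjusted p values in the text are from this test unless another is named. Alternatives used DESeq2 1.42.0 and limma 3.58.1, among others. Lists came from the pathway's known parts; named were all 10 genes, 8 near relatives and regulators, and the extreme called genes of each list in control comparisons. The 10 genes, lists and alternatives were chosen with earlier results of these data known. Samples were grouped by their labels.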

Additional observations from a re-analysis of the deposited data

Results flagged for a closer look

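In 7 cases an agonist's effect at 36 h differed from its effect at 18 h by the test of the difference itself in edgeR. With the TNFR2 agonist these were Cdkn2d (0.72 on the log2 scale), Cdkn1b (0.41), Cdk6 (-0.23) and Ccnd2 (-0.16). With the 4-1BB agonist they were Cdkn2d (0.52) and Cdk6 (-0.28), and with the OX40 agonist Cdk6 (-0.22). In each case the effect at 18 h was the larger. All groups held 2 or 3 libraries, so no library was tested for standing apart from its group.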

How the results depend on the processing

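Among 2737 values of single genes under alternatives, 2566 kept their side of the threshold or had no adjusted p, 135 lost and 35 gained a call. A change of direction was counted only where a value was called in either fit, and 1 was: Cdkn2c between resting and 18 h control cells, at -0.028 on log2(TPM + 1). Changes of direction among values called in neither fit were not counted. Calls under every alternative, leaving out each library included, were kept for 8 of 9 genes at 18 h and 9 of 10 at 36 h against rest. How many of all genes kept theirs was not counted, where 80.9% and 84.5% were called in the main fit. A fit without the 6 libraries over 10000 CPM of the ribosomal transcript removes 2 of 3 controls at 18 h. The counts of called genes then fell with every agonist at 18 h. They also fell for the 36 h against the 18 h effect with TNFR2, 4-1BB and OX40. Calls are harder to reach for any gene with 1 control, and whether these losses were particular to the 10 genes was not tested. At 36 h the OX40 count in that fit was 1, and the counts among agonists were 1 gene and 2 pairs. With the ribosomal transcript as a covariate the counts were 2 for OX40 at 18 h and 1 at 36 h, 2 (TNFR2) and 1 (DR3) for the difference between times, and 3 pairs at 18 h. With limma on log2(TPM + 1) they were 3 (4-1BB), 3 (DR3) and 2 (OX40) at 18 h, 2 (TNFR2), 1 (4-1BB) and 0 (OX40) for the difference between times, 4 pairs at 18 h, and 0 genes and 0 pairs among agonists at 36 h. Fitting only the groups compared gave 4 genes with TNFR2 and 4 with 4-1BB at 36 h. The stricter filter on low counts gave 2 for the OX40 difference between times, 2 genes among agonists at 18 h and 2 pairs, no filter gave 2 genes among agonists at 18 h, and DESeq2 gave 2 genes there and 2 for the OX40 difference between times. The cause of these changes was not tested.

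Leaving out 1 library at a time, the counts of called genes ranged from 9 to 10 (18 h against rest), 10 to 10 (36 h against rest), 8 to 10 (36 h against 18 h), 7 to 8 (TNFR2), 3 to 5 (4-1BB), 4 to 4 (DR3) and 3 to 4 (OX40) at 18 h, and 2 to 2, 2 to 3, 1 to 2 and 1 to 2 in the same order at 36 h. For the difference between times they were 2 to 3, 1 to 2, 0 to 0 and 0 to 3, and among agonists 1 to 4 genes and 1 to 2 pairs at 18 h and 1 to 2 genes and 3 to 4 pairs at 36 h.

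Same-numbered libraries correlated by -0.167 to 0.137 in their deviations from group means, and 2 of 32 libraries correlated best with their own number. With 2 or 3 libraries per group, such values cannot tell whether same-numbered libraries share an animal, a day or a batch. A replicate block ended 3 calls: Cdkn1b with 4-1BB at 18 h (-0.23, adjusted p = 0.0558 in edgeR), the TNFR2 difference between times in Cdkn1b (0.41, 0.0533) and Cdkn2c between TNFR2 and 4-1BB at 36 h (0.28, 0.0676). Scaling moved the median log2 fold change of all genes by at most 0.057 in size, except -0.132 on log2(TPM + 1). The lowest count of any of the 10 genes in a library was 57 (Ccne1 at rest), which limits the precision of Ccne1, Cdkn2c and Cdkn2d.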
